A study of Vitis vinifera with 4 samples.

Results

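The 596 binding events of the grapevine transcription factor (TF) NAC61 that lie on chromosome 8 are described here, out of 8558 events in the whole genome (6.96%, exact 95% interval 6.43 to 7.52). They were taken as all events whose summit, the most likely position of the bound site, lay on chromosome 8, and that chromosome was chosen because its events were the densest of the 19 anchored chromosomes. The members were thus chosen by the measured positions of the events, and their density and spacing are given as a description with no test. The signal, the assigned genes and the bound k-mers were not used in the choice.

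Binding was measured by DNA affinity purification sequencing (DAP-seq) on naked genomic DNA, which was extracted from pooled young leaves of fruiting cuttings of cv. 'Syrah'. HALO-NAC61, the TF fused to an affinity tag, was represented by 2 samples, and GST-HALO, a tagged protein without a TF, by 2 control samples, and both proteins were made in vitro in rabbit reticulocyte lysate. The deposited values are 1 list of events for both HALO-NAC61 samples together, called against the control, so no spread between replicates could be computed and no value below has an SD. Because the DNA was free of chromatin and the protein was added to it, the list shows where NAC61 could bind the sequence and not where it was bound in a leaf or berry. Intervals given for shares and medians cover counting error only.

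NAC proteins are plant-specific TFs that bind DNA through a conserved N-terminal domain, and many of them are known for roles in senescence, stress responses and the ripening of fleshy fruit. NAC61 is a grapevine member of this family. Sites bound by NAC proteins often share a short core with CGT in it, and the bases beside the core differ among family members. In DAP-seq such a core is recovered with the fragments that the tagged protein retained.

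The bound k-mers are shown first because they are the letters that the peak caller matched within an event. The caller learned them on this same list, so they are a description and not separate evidence for the events. The sequences are written 5′ to 3′ as they were listed, with TGCGTG in capitals, a core that was searched on both strands. The strand of the chromosome that holds a k-mer was not used. The first 5 lines are, of the listed events of chromosome 8 with a k-mer, those with the highest signals, the next 2 hold the core after other bases, and the last 3 lack it.
BLH1: ggtTGCGTGt
bHLH gene VIT_08s0058g00960: gtTGCGTGt
BLADE-ON-PETIOLE2: TGCGTGt
ECA1: ctTGCGTGt
PIN3: ttTGCGTGtaa
CYP93A1: gctTGCGTG
grpE: gatTGCGTG
ATPP2-A15: gcttgcgt
C2 domain protein VIT_08s0007g00430: attgcgta
AT-hook protein 1: attgcttgt

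Genes and k-mers were known for 131 of the 596 events (21.98%, against 22.15% of the events on the other 18 anchored chromosomes), because the gene assignments used here cover the annotations in alphabetical order only as far as the letter D. A k-mer was given for 55 of these 131 events (42.0%, exact 95% interval 33.4 to 50.9), where the share over all listed anchored events was 39.9%. TGCGTG was found in 33 of the 55 k-mers (60%, 45.9 to 73.0), where the share over all k-mers of anchored events was 41.8%, and in 277 of 686 k-mers of the other chromosomes (40.4%, 36.7 to 44.2). This share was the highest of the 19 chromosomes, on which the others held between 23.7% (chromosome 14) and 51.1% (chromosome 4). The shorter GCGTG, which lies within TGCGTG, was in 70.9% of the k-mers of chromosome 8 (57.1 to 82.4) and 58.5% elsewhere (54.7 to 62.2). CGTG, within both, was in 83.6% and 80.5%. The longer TTGCGTG was in 45.5% (32.0 to 59.4) and 34.4% (30.8 to 38.1). The shares thus lay closer with a shorter core and also with the longer one. Of these forms, only TGCGTG had intervals that did not overlap.

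The single k-mers behind these shares had small counts. The plain form printed above for BLADE-ON-PETIOLE2 was the k-mer of 8 events on chromosome 8 (14.5% of 55, 6.50 to 26.7) and of 37 events elsewhere (5.39%). The form printed for AT-hook protein 1, which does not hold CGTG, was found once on chromosome 8 (1.82%, 0.046 to 9.72) and 48 times elsewhere (6.997%). The interval for chromosome 8 holds the share found elsewhere. The 55 events carried 31 different k-mers. Events with TGCGTG had a median signal of 81 reads (73.4 to 103, 33 events), and events with another k-mer 85 reads (77 to 102, 22 events), with overlapping intervals.

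The events of chromosome 8 ran from a summit at position 69726 to one at 22532246 of the PN40024 12X.v2 assembly, a span of 22.5 Mb. Over this span there were 26.5 events per Mb. Chromosome 1, the next in order, had 24.1 events per Mb with 581 events, and the other 18 chromosomes lay between 12.5 (chromosome 16) and 24.1 with a median of 18.2. Chromosome 18 held more events, 741, but on a longer span, at 21.6 per Mb. Chromosome 8 kept the first place when a −log10 q-value of 3 or more was required (23.1 per Mb against 21.7 on chromosome 1), but the lead over chromosome 1 was small at a minimum of 5 (18.1 against 17.6). The q-value is the caller's adjusted p-value against the control, so a higher −log10 q means stronger evidence for an event.

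**Figure D1:**
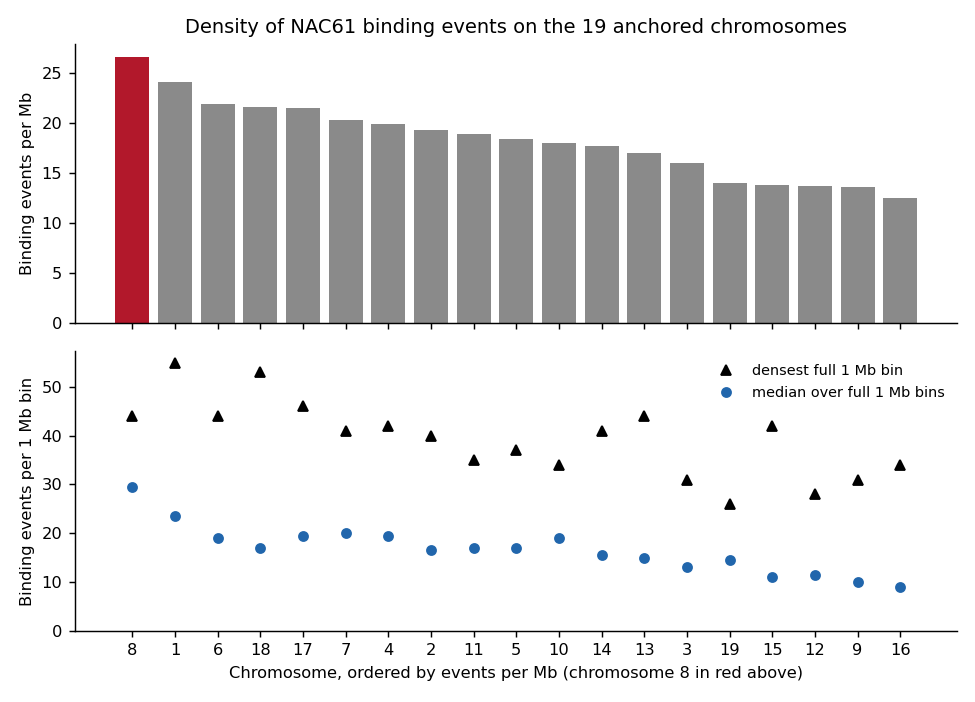
The upper panel gives the events per Mb of each of the 19 anchored chromosomes, ordered from dense to sparse, with chromosome 8 in red at 26.5, and the lower panel gives the count in the densest full 1 Mb bin (triangles) and the median over full bins (circles). Chromosome 8 had the highest median bin, 29.5 events, but not the densest single bin, which was on chromosome 1 with 55 events.

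The first place did not come from 1 very dense bin. In bins of 1 Mb counted from the start of the chromosome, the median over the 22 full bins was 29.5 events on chromosome 8 and 23.5 on chromosome 1. The densest bin of chromosome 8 held 44 events, or 54 with bins shifted by 500 kb, a setting for which no rank was computed. With the unshifted bins chromosome 8 had rank 4 among the 19 chromosomes, with chromosome 1 first at 55. Instead, many bins were well filled. There were 30 or more events in 11 of the 22 full bins (50%), and in 67 of 427 full bins of the other chromosomes (15.7%), where the highest share was 33.3% on chromosome 17.

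Along the chromosome the events were divided unevenly. Bins 1 to 9 held 112 events in 9 Mb, or 12.4 per Mb, with between 1 and 21 events per bin. Bins 10 to 23, of which the last is partial, held 484 events in 13.5 Mb, or 35.8 per Mb, with 26 to 44 events in each full bin, so that no full bin of the first stretch reached the lowest of the other. The boundary between the stretches was set after the counts were seen. The first stretch alone was thus about as sparse as the sparsest whole chromosome, chromosome 16 with 12.5 per Mb.

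**Figure D2:**
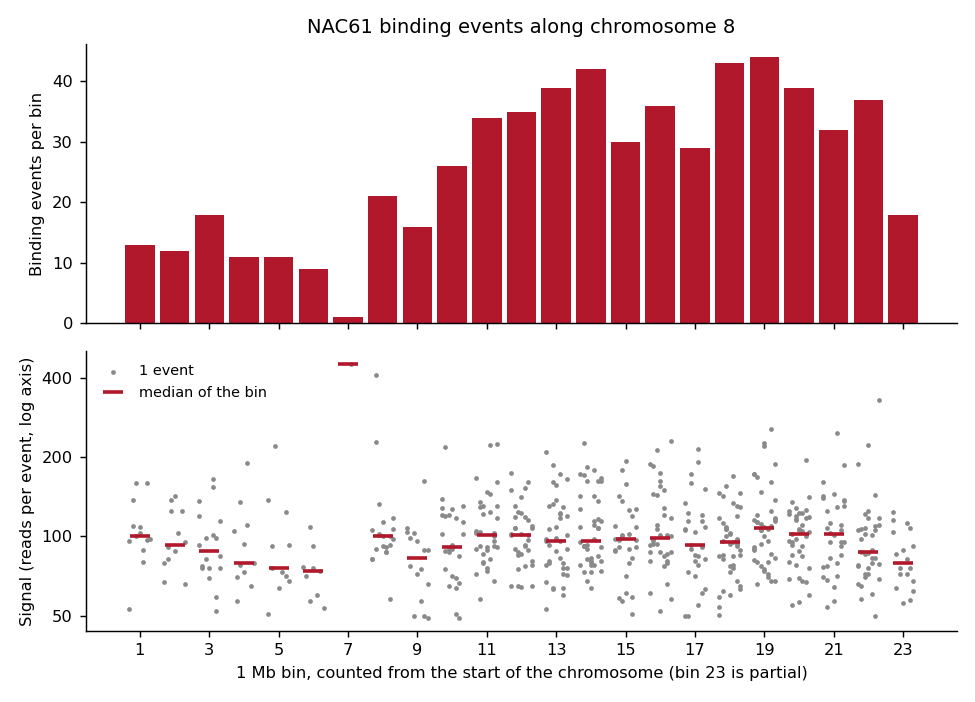
Each bar is the number of events in a 1 Mb bin of chromosome 8 (upper panel), and each grey point is the signal of 1 event in reads on a log axis with the median of the bin as a red line (lower panel). Bin 7 holds 1 event, the strongest of the chromosome with 451 reads, and bins 10 to 22 hold 26 to 44 events each.

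The sparse stretch also held the widest gaps between neighbouring summits. The widest was 782 kb, between positions 5870888 and 6653120, and the next was 742 kb, between 430028 and 1171537. Of the 8 gaps over 250 kb, 7 lay in bins 1 to 9, and the exception was 270 kb between 11146030 and 11416377. The median signal of the sparse stretch was 92 reads (87 to 98) and that of bins 10 to 23 was 97.8 (94 to 102), with overlapping intervals. Events under 60 reads made up 10.7% of the sparse stretch (5.66 to 17.97) and 4.96% of the other (3.20 to 7.29). The lowest medians of full bins, 79, 76 and 74 reads, were those of bins 4, 5 and 6.

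The signal, which counts the HALO-NAC61 reads that the caller assigned to an event, had a median of 96 reads on chromosome 8 (exact 95% interval 93 to 100, 596 events). It was 89 (88 to 90) over the 7793 events of the other chromosomes, and their single medians ran from 78 on chromosome 15 to 96 on chromosome 1, which had the same median as chromosome 8. The 25th and 75th percentiles on chromosome 8 were 78 and 120 reads. Across the 19 chromosomes the median signal was higher where events were denser (Pearson's r = 0.84, Spearman's rho = 0.81, 19 chromosomes of the same pooled libraries), and across the 21 full bins of chromosome 8 with at least 5 events the median signal likewise went with the count (r = 0.68, rho = 0.60). These are descriptions of 1 list, whose points share their libraries.

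The shift was also looked at without the weakest events. Whether a cut at 60 reads takes out differences in calling between chromosomes was not tested. Among events with 60 reads or more, the median was still 98.55 reads on chromosome 8. That was rank 2 of the 19 chromosomes, behind chromosome 1 at 99, and the other chromosomes had a median of 94. Events under 60 reads made up 36 of the 596 (6.04%, 4.27 to 8.26), where the share over all anchored chromosomes was 13.1% and that on the other 18 together was 13.7% (12.9 to 14.4). This was the lowest share of the 19 chromosomes, and the next was 8.09% on chromosome 1. Across the 19 chromosomes this share was lower where events were denser (Pearson's r = −0.87, Spearman's rho = −0.84), and chromosome 8 was chosen as the densest. The weakest event of chromosome 8 had 49 reads, whereas the weakest on every other chromosome had between 37 and 44.1. Within chromosome 8, the share under 60 reads was 4.14% in bins with 30 or more events (17 of 411) and 9.71% in bins with 10 to 29 (17 of 175), and on the other chromosomes it was 9.32% and 14.3% in bins of the same classes, so it was lower on chromosome 8 within each of these classes, with intervals that overlapped in bins with 10 to 29 events.

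The −log10 q given to the weakest events also differed. Among events with 50 to 60 reads, the median −log10 q was 2.57 for the 34 events of chromosome 8 and between 3.235 (chromosome 16) and 4.23 (chromosome 14) on the others. The highest value in that range was 4.24 on chromosome 8, below the highest on each of the other chromosomes (5.49 on chromosome 1 to 11.99 on chromosome 16). Since no event below a −log10 q of 2 is in the list, events of 50 to 60 reads lay closer to that limit on chromosome 8. In each of the higher ranges the median lay within the range of the others, at 4.27 against 3.97 to 5.77 for 60 to 80 reads, 6.35 against 5.99 to 8.67 for 80 to 100 reads, and 10.45 against 9.56 to 12.81 for 100 to 140 reads. These medians were at places 6, 2 and 3 from the lowest. The highest value for 60 to 80 reads, 10.3, was again below that of every other chromosome (11.31 to 21.33). In the next ranges the highest value was at places 4 and 13 from the lowest. The part of this difference in the share of weak events, and in the density, was not tested.

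**Figure D3:**
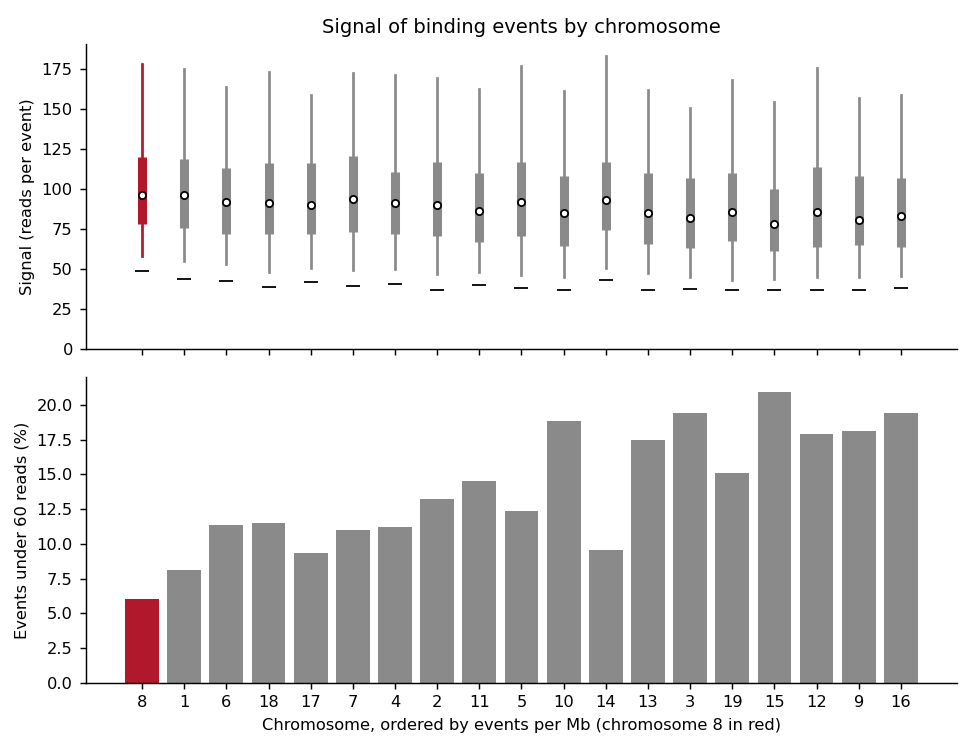
The upper panel shows, for each chromosome, the 5th to 95th percentile of the signal in reads (thin line), the 25th to 75th percentile (thick line), the median (open circle) and the minimum (dash), and the lower panel the share of events under 60 reads. Chromosome 8, in red, had the highest minimum, 49 reads, and the lowest share under 60 reads, 6.04%.

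At the high end, chromosome 8 had rank 2 of the 19 chromosomes by the 75th percentile (120 reads) and by the 95th (178 reads, with a median of 166 over the other chromosomes). The top 10% of anchored events by signal, those with at least 145 reads, included 74 of its events (12.4%, 9.88 to 15.3), against 10.2% over all anchored events. This was the highest share of the 19 chromosomes, next to 12.2% on chromosome 5, and by q-value instead of signal the share was 10.9%. There were 18 events with 200 reads or more (3.02%, 1.80 to 4.73, against 2.44% of all anchored events). The median −log10 q was 7.635 (7.02 to 8.28) and 7.11 (6.94 to 7.26) elsewhere, and 406 events (68.1%) reached 5, against 66.7% of all anchored events. The strongest event of the chromosome was the seventh among the maxima of the 19 chromosomes, which reached 2511 reads.

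Of the 5 strongest events, 2 lay in bins 7 and 8 and 3 in bins 19 to 22. The first, chr8:6653021-6653221, had 451 reads and a −log10 q of 67.5, and stood alone in bin 7 between the widest gap of the chromosome and the third widest, 454 kb. No gene was listed for it. The second, chr8:7240482-7240682, had 411 reads and the highest −log10 q of the chromosome, 90, and was assigned to BLH1, which encodes a BEL1-like homeodomain TF, from 14047 bp upstream. The next events, chr8:21623521-21623721 with 330 reads and chr8:18483597-18483797 with 255 reads, had no listed gene, and the fifth, chr8:20426814-20427014 with 248 reads, was assigned to a cation efflux gene of the MTP family. Reads and q-value ranked the events differently in places. Of the 2 events with 226 reads, the event at 13314206 had a −log10 q of 19.4 and the event at 18807149 one of 58.8, and 9 events of 102 reads ranged from 2.1 to 13.8.

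Consecutive summits of chromosome 8 were a median of 19.3 kb apart (17.0 to 21.7, 595 distances), the shortest of the 19 chromosomes, where the others ranged from 20.4 kb (chromosome 18) to 38.1 kb (chromosome 19). Divided by the mean distance, which takes out the density, the median was 0.511, the ninth highest of the chromosomes, with the others between 0.419 and 0.576. At a distance of 500 bp, the high density did not go with a high share of close events. Another summit lay within 500 bp of 29 events (4.87%, 3.28 to 6.91), against 5.83% of all anchored events, which was rank 16 of the 19 chromosomes from the highest share. At wider distances the share was above that of the others, with overlapping intervals. Within 1000 bp it was 78 events (13.1%, 10.5 to 16.1), against 11.1% on the other 18 chromosomes (10.4 to 11.8). Within 2 kb it was 115 events (19.3%), against 17.3% of all anchored events.

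These 29 close events formed 13 pairs and 1 group of 3. The closest summits were 156 bp apart, at 11998606 with 75.2 reads and 11998762 with 85.8 reads. The group of 3 had 69.5, 66.7 and 130.8 reads at 9773768, 9774082 and 9774575. Within the pairs the higher signal was 1.09 to 2.11 times the lower, with a median of 1.503. All 29 signals were fractional, and they added up to whole numbers (within 1e-06) in 12 of the 14 groups, so the value of each close event depends on how the caller divided the reads. Among the pairs with a listed gene, 2 were upstream of transporter genes, CAX7, a cation exchanger gene (114.9 and 59.1 reads), and WBC21, an ABC transporter gene (73.4 and 67.6), and 1 was inside Crinkly4 (183.1 and 91.9), whose maize relative is a receptor kinase of the epidermis. The other such pairs lay upstream of the kinase gene CRK1 (95.9 and 72.2) and the cytochrome P450 gene CYPLXXVIA2 (111.1 and 73.9).

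The 131 listed events were assigned to 104 genes, of which 82 had 1 event, 18 had 2, 3 had 3 and 1 had 4. The promoter window, which reached 3 kb upstream and 100 bp downstream from the transcription start site (TSS), held 44 of them (33.6%, 25.6 to 42.4), against 28.9% of all listed anchored events, and 44 were inside the gene (33.6%), against 37.2%. The remaining events included 13 between 5 and 3 kb upstream (9.92%, 5.39 to 16.4), where the share elsewhere was 5.45% (4.42 to 6.62), and 5 more than 3 kb past the gene (3.82%), where it was 7.18%. The intervals overlapped for each of these positions. In the promoter window the summits were a median of 861.5 bp upstream of the TSS (438 to 1200), and 818.5 bp elsewhere.

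The 44 events of the promoter window had a median of 80.5 reads (75 to 102), the 44 inside genes 99.5 (91 to 106), and the 22 events over 5 kb upstream or over 3 kb downstream 96.95 (87 to 110). Elsewhere these medians were 85 (81.8 to 88), 94 (91 to 96) and 80 (77 to 86). Chromosome 8 was thus lower in the promoter window and higher inside genes, with overlapping intervals, and higher at the distant events, with intervals that did not overlap. These distant events belonged more to the sparse stretch, with 12 of 31 listed events in bins 1 to 9 (38.7%, 21.9 to 57.8) and 10 of 100 in bins 10 to 23 (10%, 4.90 to 17.6). Distance was taken from the assigned gene only, so a distant event can lie inside another gene, as the event at 7320137 did. The share of events in the promoter window was nearly the same in both stretches, 35.5% and 33%. Listed events without a k-mer had a higher median signal, 100.5 reads (92 to 107), than those with one, 81.8 (77 to 97), with overlapping intervals. Their median −log10 q was 9 (7.59 to 11.06) without a k-mer and 5.21 (4.69 to 7.32) with one, and these intervals did not overlap. Elsewhere the 2 medians were 7.22 (6.94 to 7.81) and 6.62 (6.03 to 7.29).

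**Figure D4:**
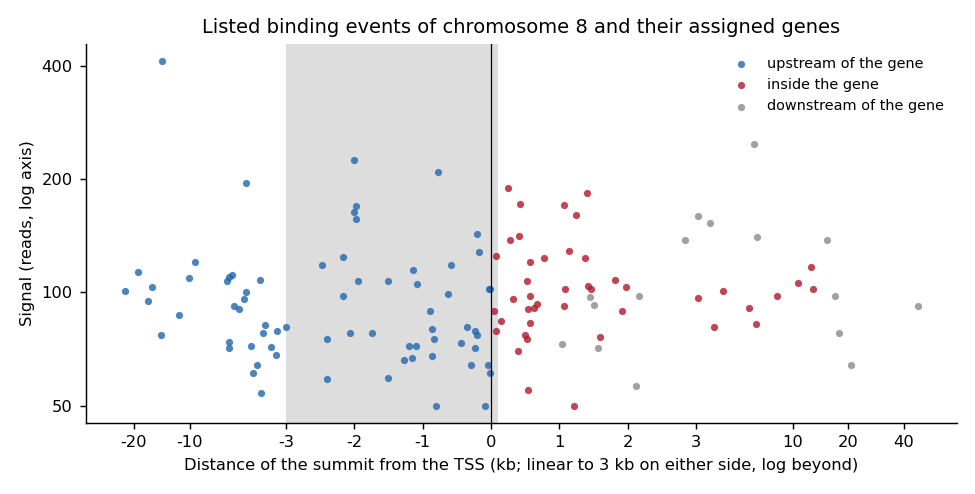
Each point is 1 of the 131 listed events of chromosome 8, placed by the distance of its summit from the TSS of its gene in kb (linear to 3 kb on either side, log beyond) and by its signal in reads on a log axis, with the promoter window shaded. The strongest listed event, 411 reads, lay 14047 bp upstream of BLH1, and of the 10 strongest, 3 were in the promoter window and 4 inside a gene.

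The listed genes are described by function. The groups below were drawn up from the annotations of chromosome 8 itself, so their sizes say nothing about an excess over other chromosomes, and the letters after D are missing from all of them, which leaves out families such as the NAC, MYB and WRKY TFs. NAC61 itself, whose identifier places it on chromosome 8, was for the same reason not among the genes read here.

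TF genes and a TF cofactor gene had 16 events at 11 genes. Their median was 122.5 reads, and 12 were at or above the median of the chromosome. Beside BLH1, whose second event further upstream had 101 reads, the strongest was the bHLH gene VIT_08s0058g00960 with 225 reads at 2003 bp upstream of the TSS. ARF7, which is annotated as auxin response factor 10 and belongs to the TFs that set the response of genes to auxin, had 209 reads at 781 bp upstream. BLADE-ON-PETIOLE2, known in Arabidopsis as a cofactor that shapes leaves and floral organs, had 195 reads at 4952 bp upstream. Only VIT_08s0058g00960 and ARF7 of these genes were thus bound in the promoter window by an event of over 200 reads. Further bHLH genes followed, bHLH043 with 163 and 75 reads and bHLH042 with 157, all within 2 kb upstream.

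Auxin genes had 9 events at 7 genes, ARF7 among them, and 7 of the 9 were at or above the chromosome's median. PIN3, an efflux carrier that sets the direction of auxin flow, was bound within the gene with 160.9 reads, 1249 bp past the TSS. AUX1, the influx carrier, had 3 events, of 123 reads within the gene and of 107 and 109 reads at 6263 and 10078 bp upstream. Auxin efflux carrier protein 10, which neighbours PIN3 by its identifier, had 107 reads at 1949 bp upstream. These 3 carrier genes, for uptake and export, therefore had between 1 and 3 events each, all above 100 reads.

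Calcium genes had 14 events at 9 genes. ECA1, a pump that moves calcium into the endoplasmic reticulum, had 171 reads inside the gene and 78 in the promoter window. The calmodulin gene VIT_08s0007g05790, which encodes a calcium sensor, had 120 and 92.4 reads, and Calmodulin-7 had 118.1 reads at 584 bp upstream. A second calcium pump, VIT_08s0007g08960, had 108 reads inside the gene. CRK1, a kinase related to the calcium-dependent kinases, had 3 events between 3599 and 5078 bp upstream, of 71.4, 72.2 and 95.9 reads, all below the chromosome's median of 96. Over the group, 7 of the 14 events were at or above that median.

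Genes for the transport of water, ions and metabolites had 14 events at 9 genes, 10 of them at or above the chromosome's median. The MTP gene, annotated MTPc3 and of a family that moves metal cations out of the cytosol, had the 248 reads named above at 2089 bp beyond its end. GAMMA-TIP, an aquaporin of the vacuolar membrane, had 172 reads at 431 bp inside the gene, and the gene of Anthocyanin membrane protein 1 had 143 at 208 bp upstream. CAX7 had the pair given above. The gene with the most assigned events, VIT_08s0105g00250, encodes an aluminum activated malate transporter. It had 4, of 113, 100, 98 and 87 reads, none of them in its own promoter window or inside it. The event of 98 reads lay within the coordinates of another listed gene, VIT_08s0105g00260, annotated as digalactosyldiacylglycerol synthase 1. ABC transporter genes stood lower, with 5 events at 4 genes and a median of 73.4 reads. The highest of them was WBC22 with 101 reads, ahead of WBC18 with 76, WBC21 and PDR23 with 54.

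Genes of DNA methylation and chromatin had 5 events at 3 genes. DEMETER, a DNA glycosylase that removes methylated cytosine, had 3 events, of 107 reads at 1514 bp upstream and of 103 and 95 reads at 16008 and 16743 bp upstream. A chromomethylase gene, whose product adds methyl groups to cytosine, had 140.2 reads beyond the end of the gene. An SNF2 helicase gene had 123 reads inside the gene. Of the 5 events, 4 were at or above the chromosome's median.

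Cytochrome P450 genes had 6 events at 5 genes, led by CYP94C9, of a family that oxidises jasmonates and fatty acids, with 170 reads at 1979 bp upstream, and CYP93A1 with 118 reads at 2475 bp upstream. CYPLXXVIA2 had a close pair of 111.1 and 73.9 reads, and CYP94A1 had 90 reads. Cell wall and carbohydrate genes had 5 events, of which CSLA09, an enzyme of mannan synthesis, had 189 reads at VIT_08s0007g03990 and 64 at VIT_08s0040g01340, a second gene of the same annotation. 1,4-beta-mannan endohydrolase, which breaks mannan down, had 89 reads, and an arabinosidase gene had 64.

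Events at protease and phenylpropanoid genes had low signals. Proteases and their inhibitors had 7 events with a median of 61 reads, and 2 of them, at a cysteine protease inhibitor gene (102 reads) and VvAP21 (97), reached the chromosome's median. The aspartic protease genes VvAP22 and VvAP23 had 50 reads each, next to the weakest events of the chromosome. Phenylpropanoid and lignan genes had 6 events, none at or above the median. Among them, 4CL7, which activates coumarate for the pathway, had 91 reads inside the gene, and DIR20 of the dirigent proteins had 83. ATAN11, a WD-repeat protein related to a regulator of anthocyanin synthesis in petunia, had 71 and 55 reads. By −log10 q, the events at 4CL7 (14.84), DIR20 (11.8) and the cysteine protease inhibitor gene (10.01) lay above the chromosome's median of 7.635. The other events of both groups lay below it.

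The densest bin, from 18 to 19 Mb, held 44 events with a median of 107.5 reads. Its listed genes were led by CSLA09 and GAMMA-TIP with the values above, followed by ATPP2-A15, of the phloem lectin family, with 138 reads at 273 bp inside the gene. CYPLXXVIA2, 4CL7 and AT-hook protein 1, with 80 reads, came next. AT-hook protein 1 had its event in the promoter window, at 864 bp upstream, as did the last of the 7 listed genes, CHUP1, which positions chloroplasts, with 77 reads at 205 bp upstream and 75 inside the gene. The strongest events of the other 5 genes lay outside the window.

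Within 100 bp of the TSS there were 8 listed events. The strongest was at the gene of the co-chaperone grpE, which serves the exchange of nucleotides on Hsp70 proteins, with 125 reads at 74 bp past the TSS. The cysteine protease inhibitor gene and the gene of CAM interacting protein 111 had 102 reads each at 32 and 21 bp upstream. Cis-zeatin O-beta-D-glucosyltransferase VIT_08s0007g08910, which stores cytokinin as a glucoside, had 89 reads at 37 bp past the TSS, and a DC1 domain gene had 79 reads at 69 bp. None of these 8 events reached 145 reads, the limit of the top 10% of anchored events. Of all anchored events 10.2% did, so with 8 events this is not read as a trait of events near the TSS.

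The functional categories given with the gene list were not drawn from chromosome 8 and can be set beside the other chromosomes, over the letters listed. Transport was given for 25 of the 131 events (19.1%, 12.7 to 26.9) and for 13.7% of the listed events elsewhere. Transcription factor activity was given for 17 (13.0%, 7.74 to 19.96) and 7.18%, and signal transduction for 13 (9.92%, 5.39 to 16.4) and 5.85%. Response to hormone stimulus (8.40% and 8.17%) and secondary metabolic process (5.34% and 5.56%) were alike. Lower shares than elsewhere were those of DNA/RNA metabolic process (3.05% and 7.24%), cellular amino acids (3.05% and 5.91%) and cellular process (9.16% and 12.8%), among others. Genes with several events and neighbouring gene copies add to these counts, and no test of them was made.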

How the data were processed

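DAP-seq was analysed from 1 deposited list, in which the authors pooled both HALO-NAC61 replicates. According to the labels and methods, reads were trimmed with fastp (0.21.0), aligned with Bowtie2 to the PN40024 12X.v2 assembly and filtered for mapping quality, and events were called with GEM against GST-HALO. The authors deposited a signal (reads assigned to each event, not scaled), a −log10 q-value against the control (a −log10 p-value was not used), a score that follows the signal and was not used, and the position of each 201 bp interval and its summit. Depth per sample was not used.

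Events were counted per chromosome and 1 Mb bin. Events per Mb used the span from the first to the last summit, and shares carry exact (Clopper-Pearson) and medians binomial 95% intervals. The scripts were tested on simulated data. Gene identifiers, coordinates, annotations, categories and k-mers were read from the study's list of bound genes, of which 1879 of 8558 events were used. Its fold over the control was not used.

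Named are genes of the 10 strongest listed events, those with at least 3 events, up to 4 per function list, up to 6 in the densest bin and up to 5 within 100 bp of the TSS, and the 5 strongest events. The genes CHUP1, bHLH042, bHLH043, VvAP22 and VvAP23, those of pairs, and those of the last k-mers shown were added after their values were seen. The members and lists were chosen with earlier results of these data known. Alternatives covered the q-value minimum, chained summits, bins, neighbour distance, the promoter window and the motif. Python 3.11.15, numpy 2.4.6, pandas 2.3.3, scipy 1.17.1 and matplotlib 3.10.9 were used.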

Additional observations from a re-analysis of the deposited data

How the results depend on the processing

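Of 42 alternatives, 28 were classed as leaving the value of chromosome 8 the same and 14 as moving it, mostly because they count other events. The first class was broad and did not mean a close value. It included the fall from 596 to 406 events, and from 26.5 to 18.1 per Mb, at a minimum −log10 q of 5. With a minimum −log10 q of 10 the events fell to 212, or 9.46 per Mb, and with a minimum of 5 the densest bin held 29 events, the median signal was 108 reads, 2.46% of events had a neighbour within 500 bp and the median spacing was 27.8 kb. Chromosome 8 ranked first by events per Mb under each alternative of length, q-value and chaining tried, and had rank 4 by its densest full bin, an order added after seeing the data. With bins shifted by 500 kb, its densest bin held 54 events and not 44, which was also classed as the same. By signal, 6.71% of its events were in the top 5% of anchored events and 24.3% in the top 20%. A neighbour was found for 0.336% of events within 200 bp, 13.1% within 1000 bp and 19.3% within 2000 bp. A promoter of 1 kb held 18.3% of the listed events, and CGTG was in 83.6% of the k-mers. No paired analysis was possible because the list pools both replicates and has no column for either, and for the same reason no replicate could be left out. The lowest signal in the list was 37 reads, and how it depends on depth was not tested.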
